A study of Bos taurus with 2 samples.

Results

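Among the H3K4me3 peaks that tender and tough muscle shared, 1205 were at least 2 times as long in the tough group as in the tender group. They were chosen by length alone from 9252 pairs of 1 tender and 1 tough peak on chromosomes 1 to 29 in which each peak overlapped only the other, by at least 1 bp, and they made up 13.0% of these pairs. Because the rule used the lengths, this share is a description of the lists and is not tested. The mirror set, with the tender peak at least 2 times as long as the tough peak, held 300 pairs (3.24%). The 1205 pairs are called wide-in-tough pairs here, and the mirror set wide-in-tender pairs.

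H3K4me3 was profiled by ChIP-Seq in the longissimus dorsi (LD), the loin muscle, of purebred Angus steers harvested at about 12 months. All came from the same closed herd, and no treatment is named for either group. Chromatin of 4 steers with tender meat was pooled into 1 library, and chromatin of 5 steers with tough meat formed the other. Groups were set by Warner-Bratzler shear force, which measures how hard cooked meat is to cut. Per the labels it averaged 6.77 ± 0.56 kg for the tender steers and 19.93 ± 0.39 kg for the tough steers, with the kind of error not named. With 1 pooled library per group and no replicates, the spread between steers is unknown, no difference below has a replicate check, and a peak that was wide in every tough steer cannot be told apart from one that was wide in a few of them. Likewise, a mark carried by fewer cells and less of the mark per cell cannot be told apart in whole muscle.

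H3K4me3, histone H3 trimethylated at lysine 4, is placed by SET1 and MLL complexes on the nucleosomes around the start sites of active genes, and in many tissues the genes that define a cell type carry it over an unusually long stretch. In muscle, genes of the contractile apparatus and of the myogenic factors are known to gain the mark when fibres form. The length of a peak therefore describes how far the marked nucleosomes reach, while its reads describe how much of the mark was recovered. Here the chromatin was cut to single nucleosomes with micrococcal nuclease before the antibody was added, and SICER joined 200 bp windows with reads into a peak wherever they were at most 400 bp apart. A few reads at the edge can therefore lengthen a peak by several windows.

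The deposited lists held 12930 tender and 11535 tough peaks, of which 12607 and 11277 lay on chromosomes 1 to 29. The score of a peak adds up, window by window, how improbable the reads there would be under a Poisson background (as a negative natural log), and it gave the number of reads and of windows with reads in every peak with a score up to 180. The background mean behind these scores was 0.1565 reads per window for tender and 0.1824 for tough, so that the tough library was 1.17 times as deep provided that SICER took an equal genome length for both. The part of this depth in the lengths was not tested, and values that bear on it stand beside the results. The libraries also differed in enrichment. In the paper's quantitative PCR before sequencing, a positive control region was more enriched over a negative one in tough than in tender. The part of this difference in the lengths was not tested either. Positions are given as in these lists, counted from 1. The methods name bosTau4, but on chromosome X these lists reach 148.8 Mb, while a further pair of deposited lists of the same libraries ends at 87.9 Mb, so the build of these positions is not known. The peak totals in the paper match this further pair and not the lists used here. The pairs described here are therefore not drawn from the peaks that the paper counted. No annotation on the positions of the lists used here was applied, and genes at the peaks, marker genes of muscle included, were not analysed here.

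In the wide-in-tough pairs the tender peak had a median length of 1200 bp (quartiles 1000 and 1600, range 200 to 5600), and the tough peak 3200 bp (quartiles 2400 and 4200, range 400 to 11600). Over all 9252 pairs the medians were 2000 bp and 2400 bp. The wide-in-tough pairs thus joined a tender peak that was short for the tender list to a tough peak that was long for the tough list. The gain in length had a median of 2000 bp, with quartiles of 1400 and 2600 bp, while over all pairs it was 200 bp. The ratio of the lengths had a median of 2.40 and reached 10.7. It lay under 2.5 in 637 pairs (52.9%), was exactly 2 in 230, and was 5 or more in 53. A tough peak of 5000 bp or more was seen in 171 pairs (14.2%), against 6.02% over all pairs, and a tender peak of that length in 3 (0.249%), against 3.16%.

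**Figure D1:**
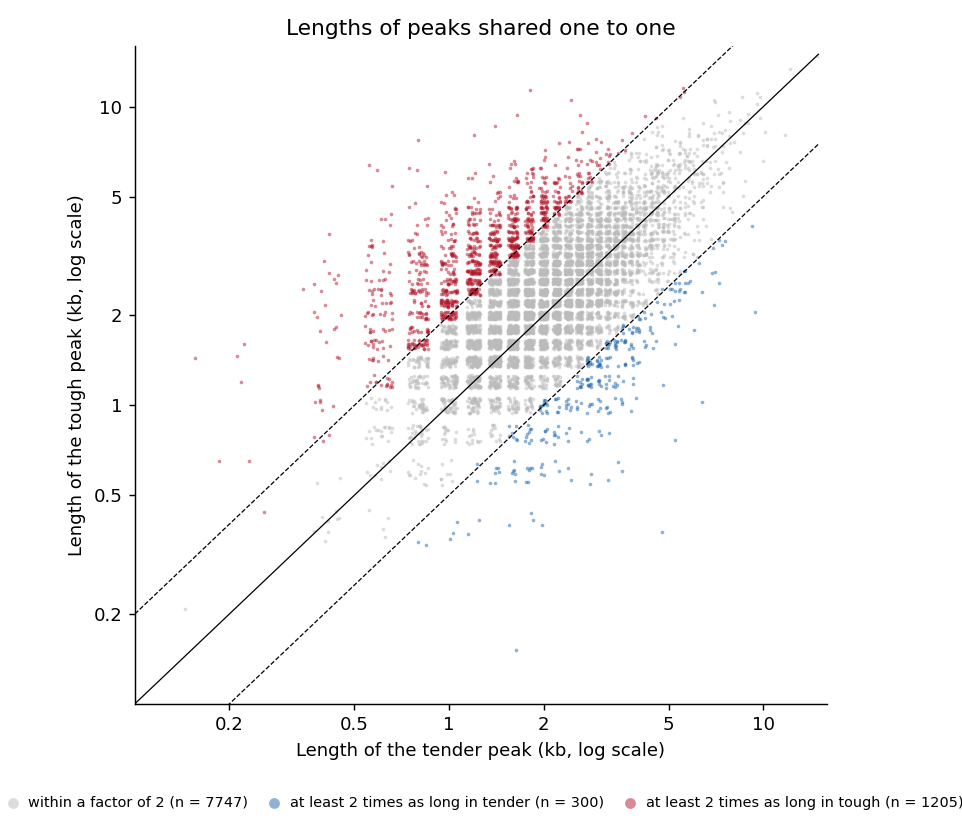
Length of the tough peak against length of the tender peak (kb, log scales) for the 9252 pairs, each point 1 pair, moved slightly at random so that points do not cover each other. The solid line marks equal lengths and the dashed lines a ratio of 2. Apart from the random shift, the 1205 wide-in-tough pairs lie on or above the upper dashed line. The 300 wide-in-tender pairs lie on or below the lower one.

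The limit of 2 fell within a continuous range of ratios. Of the 230 pairs with a ratio of exactly 2, the 3 with the highest tough scores had a tender peak of 2800 bp and a tough peak of 5600 bp on chromosome 10, 5600 bp and 11200 bp on chromosome 21, and 3600 bp and 7200 bp on chromosome 18. Just outside it lay a pair on chromosome 2 with 3600 bp and 7000 bp (ratio 1.94), a pair on chromosome 13 with 3400 bp and 6600 bp (1.94) and a pair on chromosome 23 with 3200 bp and 6200 bp (1.94). The last of these held 52 tender and 50 tough reads.

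Short tender peaks were the most often members, as the rule makes likely. Of 488 pairs with a tender peak of 200 to 800 bp, 283 were wide in tough (58.0%), followed by 26.2% at 1000 to 1400 bp, 11.5% at 1600 to 2000 bp, 4.04% at 2200 to 2800 bp and 1.18% at 3000 bp or more. The mirror image, by the length of the tough peak, was lower. Of 226 pairs with a tough peak of 200 to 800 bp, 84 were wide in tender (37.2%), followed by 9.63% at 1000 to 1400 bp and 2.73% at 1600 to 2000 bp. Short peaks of either list thus often faced a much longer partner, and more often so when the short peak was tender.

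The additional stretch of the tough peak usually lay on both sides of the tender peak. The tough peak extended past both ends of the tender peak in 868 of the 1205 pairs (72.0%), against 25.1% over all pairs. In 175 pairs (14.5%) it extended only at lower positions and in 162 (13.4%) only at higher positions. The tender peak lay wholly within the tough peak in 1091 pairs (90.5%), against 49.2% over all pairs. A longer tough peak makes both more frequent, so these shares follow in part from the rule. The longer side pointed to lower positions in 582 pairs and to higher positions in 567, with 56 even, so neither direction of the chromosome prevailed.

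Within the members the longer side measured a median of 1600 bp (quartiles 1000 and 2200), and it held a median of 80% of all bp gained. It held at least 75% in 747 of the 1205 pairs (62.0%). Over all pairs, 6943 had a tough peak that passed the tender peak at either end. In 5555 of these the longer side held at least 75%. The median share of the longer side was 100% there, with a lower quartile of 80%, against 80% and 66.7% in the members. The members were thus less one-sided. This follows in part from the rule, since a much longer tough peak more often passes both ends. The largest single extension reached 9600 bp to one side.

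**Figure D2:**
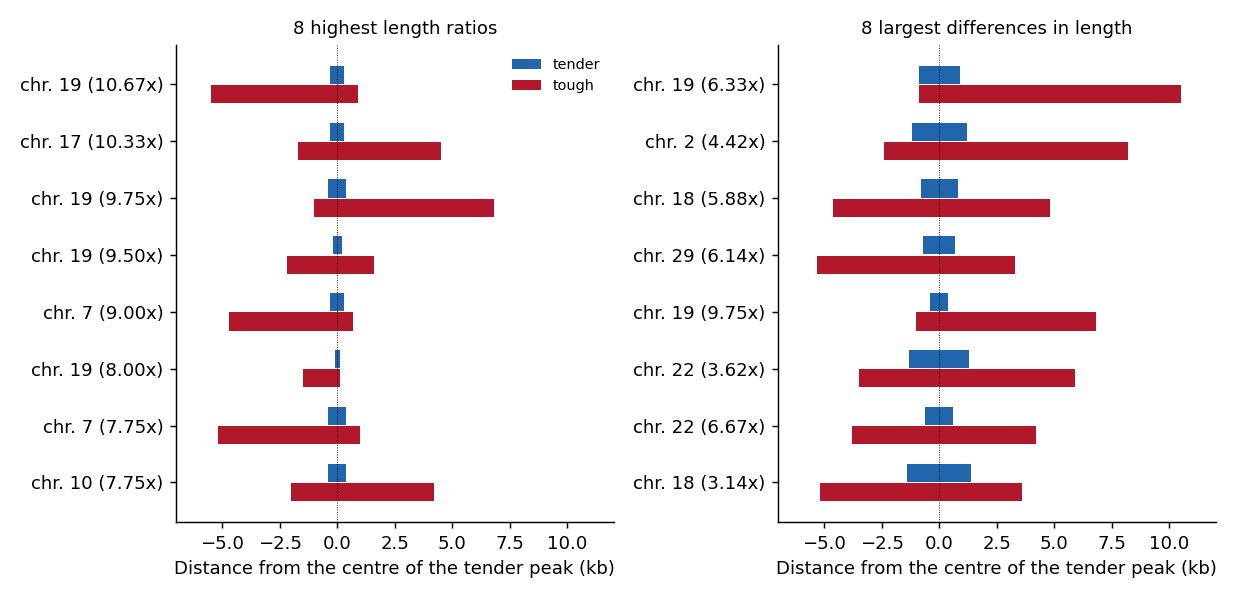
Tender (blue) and tough (red) peaks of the 8 pairs with the highest length ratio (left) and the 8 with the largest difference in length (right), drawn to scale as distance from the centre of the tender peak in kb, with the chromosome and the ratio beside each pair. The tough peak reaches mainly to one side in the pair of chromosome 19 with a difference of 9600 bp and to both sides in the pair of chromosome 18 with a difference of 7800 bp.

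The highest ratio belonged to a pair on chromosome 19. Its tender peak spanned 600 bp from 44642401 to 44643000 and held 19 reads, with reads in 3 of its 3 windows. Its tough peak spanned 6400 bp from 44637201 to 44643600 and held 40 reads in 23 of its 32 windows. The extension thus lay almost wholly at lower positions, 5200 bp against 600 bp. The next ratio, 10.3, was that of a pair on chromosome 17 with a tender peak of 600 bp and 16 reads (70718601 to 70719200) and a tough peak of 6200 bp and 30 reads (70717201 to 70723400). Here 4200 bp of the extension lay at higher positions.

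Chromosome 19 held 4 of the 8 highest ratios. On it, a tender peak of 800 bp with 27 reads (25009801 to 25010600) faced a tough peak of 7800 bp with 50 reads (25009201 to 25017000), which reached 6400 bp to higher positions. A tender peak of 400 bp with 17 reads (13991801 to 13992200) faced a tough peak of 3800 bp with 28 reads (13989801 to 13993600). The last of the 4 was weak in both groups, with 8 reads in a tender peak of 1 window (35274001 to 35274200) and 12 reads in a tough peak of 1600 bp (35272601 to 35274200). In the first 3 of these pairs the tender reads were concentrated, at 6.33, 6.75 and 8.50 reads per window that held a read, while the tough peaks held 1.74, 2.27 and 2.15.

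The other high ratios lay on chromosomes 7 and 10. On chromosome 7 a tender peak of 600 bp with 15 reads (63817001 to 63817600) faced a tough peak of 5400 bp with 35 reads (63812601 to 63818000), and one of 800 bp with 18 reads (12431401 to 12432200) faced 6200 bp with 28 reads (12426601 to 12432800). On chromosome 10 a tender peak of 800 bp with 10 reads (87006601 to 87007400) faced a tough peak of 6200 bp with 37 reads (87005001 to 87011200). The last pair differed most in reads among these 8, by 3.7 times.

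The largest difference in length, 9600 bp, was also on chromosome 19. The tender peak there was 1800 bp long (39647201 to 39649000) with 26 reads in 8 windows, and the tough peak was 11400 bp long (39647201 to 39658600) with 69 reads in 38 windows. Both began at the same position, and the whole extension ran to higher positions. A pair on chromosome 2 differed by 8200 bp, with a tender peak of 2400 bp and 32 reads (124955401 to 124957800) and a tough peak of 10600 bp and 52 reads (124954201 to 124964800). On chromosome 18 a tender peak of 1600 bp with 15 reads (11638201 to 11639800) sat near the middle of a tough peak of 9400 bp with 42 reads (11634401 to 11643800), with 3800 bp gained on one side and 4000 bp on the other.

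Another 4 pairs differed by 6000 to 7200 bp. Near the end of chromosome 29 the tender peak was 1400 bp long with 21 reads (51317801 to 51319200) and the tough peak 8600 bp with 40 reads (51313201 to 51321800). On chromosome 22 the lengths were 2600 bp and 9400 bp with 52 and 63 reads (tough peak 12554401 to 12563800), and in a further pair 1200 bp and 8000 bp with 11 and 39 reads (tough peak 51228801 to 51236800). On chromosome 18 they were 2800 bp and 8800 bp with 22 and 47 reads (tough peak 36505601 to 36514400). The first pair of chromosome 22 scored higher in the tender group (156.3 against 152.3), although its tough peak was 3.62 times as long and held more reads. The other 3 pairs scored higher in the tough group.

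The wide-in-tough pairs were not the strongest peaks. Tender scores had a median of 51.9 (quartiles 33.8 and 80.9) and tough scores one of 57.0 (quartiles 40.4 and 84.1), against 75.9 and 64.7 over all pairs. The tough score was the higher in 731 pairs (60.7%), against 36.4% over all pairs and 13.0% of the wide-in-tender pairs. The score adds up over windows, so this share follows in part from the rule. Equal reads score lower in tough, so these shares do not compare the amount of the mark. Per window of 200 bp the tough score was the higher in 25 pairs (2.07%), against 27.0% over all pairs, but this value divides by the length used to choose the pairs and is largely set by the rule. By quartile of the tender score, the share of wide-in-tough pairs was 24.0% in the lowest (score up to 48.4), 13.4% and 9.38% in the middle quartiles and 5.32% in the highest. The share of wide-in-tender pairs changed less along the same quartiles, with 3.24%, 4.24%, 3.63% and 1.86%. The tender peak is the shorter one in wide-in-tough pairs and the longer one in wide-in-tender pairs. These 2 series are therefore not like for like, and quartiles of the tough score were not run.

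Some members were nevertheless strong in both groups. The pair with the highest tough score lay on chromosome 3, with 242.4 in a tender peak of 1000 bp (95287401 to 95288400) and 291.5 in a tough peak of 3000 bp (95285601 to 95288600). It was followed by pairs on chromosome 28 (157.6 in tender over 5600 bp, 247.4 in tough over 11600 bp, from 34895401 to 34907000), on chromosome 10 (218.2 and 242.8, tough peak from 104137801 to 104143400) and again on chromosome 10 (238.8 in both groups, tough peak from 37827601 to 37835800). The last of these had near-equal scores at lengths of 3800 bp and 8200 bp. A further pair of chromosome 10 had 199.7 in tender and 228.9 in tough (20857601 to 20865200), and pairs on chromosomes 12 and 21 had 155.3 and 213.0, and 174.7 and 208.9. The pair of chromosome 21 had the longest tender peak among these 8 together with that of chromosome 28, 5600 bp.

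High tender scores also occurred where the tough score was lower. The highest tender score among members, 264.7, belonged to a peak of 2800 bp on chromosome 26 (22889601 to 22892400), which faced a tough peak of 6000 bp with a score of 178.5. On chromosome 29 a tender peak of 1400 bp scored 235.7 (43845001 to 43846400) and its tough partner of 2800 bp scored 140.2. On chromosome 25 the scores were 230.7 over 1800 bp and 181.6 over 4200 bp (tough peak from 2684201 to 2688400). The pair of chromosome 1, which was among the 8 highest tough scores, had 225.9 over 1800 bp and 214.3 over 4000 bp (tough peak from 135944401 to 135948400). In these 4 pairs the tough peak was the longer at a lower score, on scales where equal reads score lower in tough.

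The reads showed how the longer peaks were filled. Reads could be counted in both peaks of 1174 of the 1205 pairs (97.4%), the others having a score over 180. The tender peak of such a pair had 18 reads at the median (quartiles 13 and 26) and the tough peak 24 (quartiles 18 and 32), while over all counted pairs the medians were 25 and 24. The members' tough peaks thus had the same median number of reads as tough peaks over all counted pairs, and their tender peaks a lower one. Summed over the 1174 pairs there were 24289 tender and 30810 tough reads, 1.27 times as many, in 1.55 Mb and 4.02 Mb, 2.60 times as much. Divided by the depth ratio, the reads were 1.09 times as many in the tough group, and 0.837 times over all counted pairs.

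In single pairs the ratio of tough to tender reads had a median of 1.31 (quartiles 1.04 and 1.64, range 0.50 to 3.70), against 1.00 over all counted pairs. The tough peak held more reads in 897 of the 1174 pairs (76.4%), the same number in 50 and fewer in 227 (19.3%), while over all counted pairs it held more in 45.0% and fewer in 49.7%. The ratio of reads was above the depth ratio in 744 pairs (63.4%), against 30.8% over all counted pairs. It reached 2, the limit the lengths had to reach, in 108 pairs (9.20%), against 2.25% over all counted pairs. A longer peak takes in more windows, so these shares and the summed reads above follow in part from the rule. In the wide-in-tender pairs the tough peak held more reads in 9.69% and passed the depth ratio in 5.54%. At a median of 18 and 24 reads, the counting error of a single pair is large, and an interval for each pair is not given because each group's reads come from a peak with its own borders.

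Reads per kb divide by the length that the rule used, so a lower value for the longer peak is largely set by the choice of pairs. Median density among members was 15.7 reads per kb for tender and 7.50 for tough, and over all counted pairs 13.2 and 10.8. The tough density was the higher in 27 of the 1174 pairs (2.30%), against 32.1% over all counted pairs. At the median, 5 windows of the tender peak and 11 of the tough peak held a read. They made up a median of 90% of the tender peak and 70% of the tough peak, against 81.8% and 80% over all counted pairs. Each such window carried 3.50 tender and 2.15 tough reads at the median, against 3.23 and 2.67 over all counted pairs. The tough peaks of the members were therefore more often interrupted, and more thinly filled per window, than tough peaks over all counted pairs. They were also longer, with a median of 3200 bp against 2400 bp over all pairs, and tough peaks of equal length were not compared. In pairs within a factor of 2, median tough reads per such window were 3.67 at tender peaks of 200 to 800 bp and 2.41 at 3000 bp or more. The differences in filling thus follow in part from the rule.

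Reads were also set against the number of windows that held them. Over the 1174 pairs the tough peaks had 13806 windows with reads and the tender peaks 6647, and the difference in reads divided by the difference in such windows was 0.911. This net value does not measure the reads in the added windows themselves. A window that holds a read has at least 1. Summed over the members, the tough windows that matched the tender ones in number therefore held fewer reads than the tender ones. This was not particular to the members, since over all counted pairs the tough peaks had more windows with reads (82724 against 71013) and fewer reads (226011 against 231771), a net value of -0.492. The fullest window had 7 reads at the median for the members' tender peaks and, depending on how the score is split over the windows, 5 to 6 reads in the tough peaks. It was fuller in the tender peak in 700 pairs (59.6%) and in the tough peak in 228 (19.4%) whichever way the score is split. Over all counted pairs these shares were 53.0% and 24.4%.

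**Figure D3:**
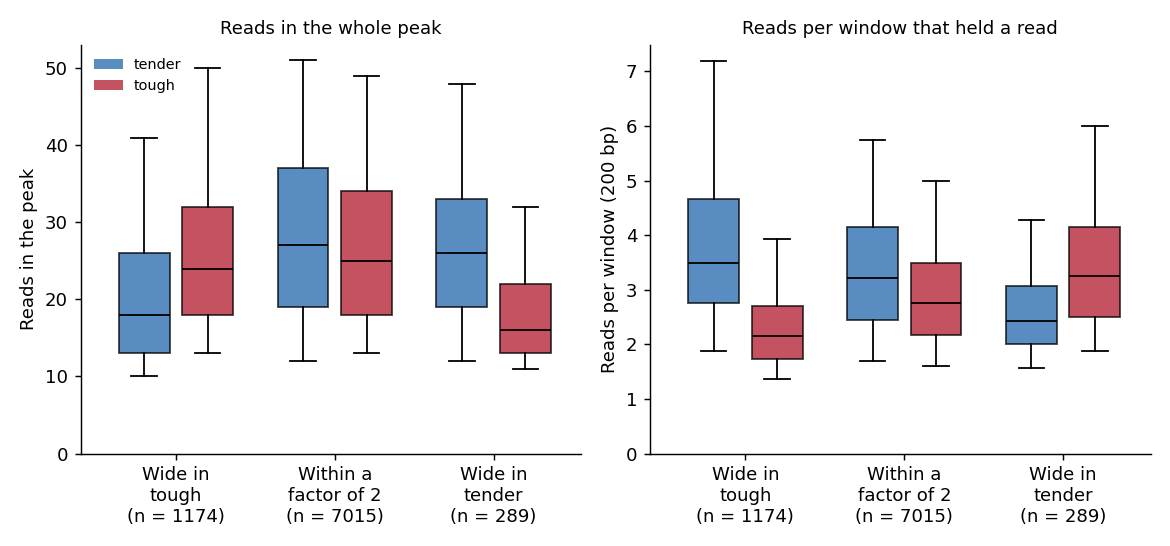
Reads in the whole peak (left) and reads per 200 bp window that held a read (right) in tender (blue) and tough (red) peaks, for wide-in-tough pairs, pairs within a factor of 2 and wide-in-tender pairs with counted reads; boxes show median and quartiles and whiskers the 5th and 95th percentiles over pairs. In the wide-in-tough pairs the median number of reads was 18 in tender and 24 in tough, while reads per window with reads were 3.50 and 2.15.

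In the mirror set the order of reads and of reads per filled window was reversed. The 289 wide-in-tender pairs with counted reads had medians of 26 tender and 16 tough reads, and 2.43 tender and 3.25 tough reads per window that held a read. Their longer, tender peaks had reads in a median of 70% of their windows, as had the longer, tough peaks of the wide-in-tough pairs. The fullest window was still more often fuller in the tender peak, in 43.3% of these pairs against 33.2% for the tough peak. Over all counted pairs the shares were 53.0% and 24.4%, and in the members 59.6% and 19.4%. Beside all counted pairs, the mirror set was thus shifted towards the tough peak and the members towards the tender peak. In both sets the longer peak thus had the lower median of reads per filled window, whichever group it came from.

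In 4 of 5 classes of tender length, members had a lower median of tender reads and a higher median of tough reads than pairs within a factor of 2. Within a class the rule gives members the longer tough peaks, so their higher tough reads follow in part from it. The rule also favours the shorter tender peaks of a class, so the members' lower tender reads can follow in part from it too. For tender peaks of 200 to 800 bp, the medians were 14 and 18 reads in 283 members, and 15 and 16 in 201 pairs within a factor of 2. For tender peaks of 1000 to 1400 bp, the 507 members held a median of 18 tender and 23 tough reads, and the 1392 pairs within a factor of 2 held 21 and 20. For tender peaks of 1600 to 2000 bp, the medians were 22 and 30 reads in 281 members, and 26 and 24 in 2113 pairs. For tender peaks of 2200 to 2800 bp they were 26.5 and 36 reads in 86 members, and 29 and 27 in 1955 pairs. The 17 members with a tender peak of 3000 bp or more had more of both, with 43 and 51 reads against 36 and 32.

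Members grew rarer as the tender reads increased, which follows in part from the rule. Tender peaks with 8 to 12 reads had a median length of 1200 bp, and those with 45 to 68 reads one of 2800 bp. Of pairs with 8 to 12 tender reads 39.9% were wide in tough (291 of 730), with 13 to 19 reads 19.3%, with 20 to 29 reads 11.8%, with 30 to 44 reads 7.45% and with 45 to 68 reads 4.44% (42 of 947). The share of wide-in-tender pairs stayed between 2.64% and 4.51% over these classes, which for them go by the reads of the longer peak. Among tender peaks with 45 to 68 reads, pairs wide in tough (42) outnumbered pairs wide in tender (25).

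The members were spread over all 29 chromosomes, and on each of them they outnumbered the wide-in-tender pairs. Their share of the pairs had a median of 13.0% per chromosome. It was highest on chromosome 23 (50 of 296 pairs, 16.9%, 95% Wilson interval 13.1 to 21.6%), chromosome 13 (15.9%, 12.3 to 20.2%) and chromosome 28 (14.9%, 10.3 to 21.0%). It was lowest on chromosome 20 (7 of 141 pairs, 4.96%, 2.43 to 9.89%), chromosome 27 (6.45%, 2.99 to 13.4%) and chromosome 4 (9.26%, 6.35 to 13.3%). The intervals cover counting error only, and they left out the share of 13.0% on chromosome 23 and on chromosome 20 alone. Among 29 such intervals, some can leave out this share through counting error alone. Most chromosomes therefore could not be told apart at these counts, and for chromosomes 20 and 23 it is not settled. Chromosome 19, with 4 of the 8 highest ratios, had 85 members of 594 pairs (14.3%, 11.7 to 17.4%).

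**Figure D4:**
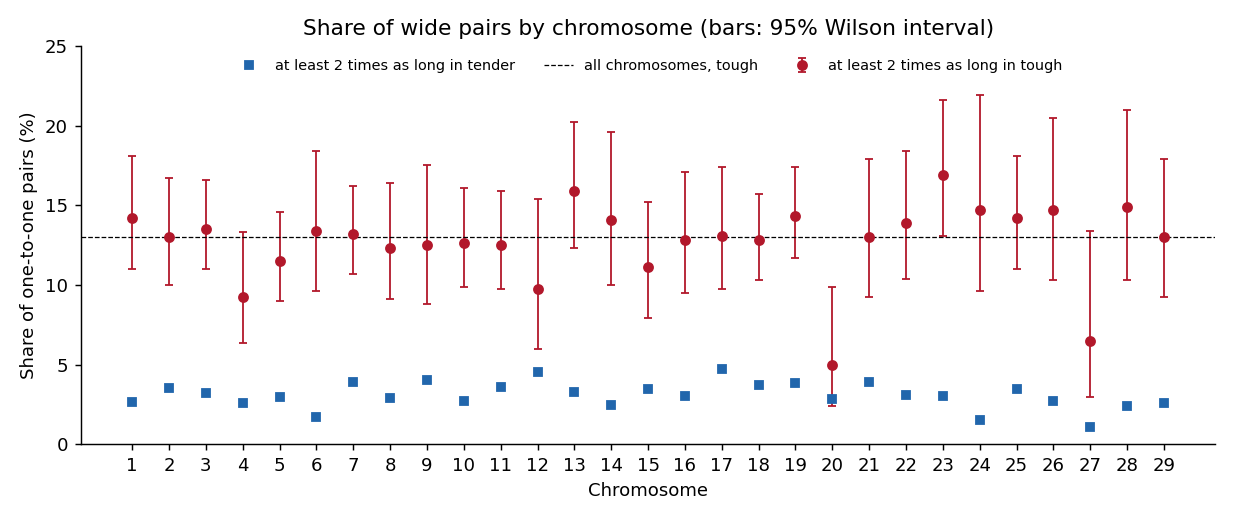
Share of one-to-one pairs on each chromosome that were at least 2 times as long in tough (red circles, bars 95% Wilson intervals) or in tender (blue squares), in percent; the dashed line is the share of 13.0% over all chromosomes. The red circles lie above the blue squares on all 29 chromosomes, and chromosomes 20 (4.96%) and 23 (16.9%) are the lowest and the highest.

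Members were more frequent at the far end of the chromosomes, at the highest positions. Within 5 Mb of the last peak of a chromosome 123 of 685 pairs were wide in tough (18.0%, Wilson interval 15.3 to 21.0%), against 1082 of the 8567 pairs elsewhere (12.6%, 11.9 to 13.4%). Pairs wide in tender were also more frequent there, with 5.11% against 3.09%, so this end held more pairs of unequal length in either direction. The first 5 Mb did not show the same. The share wide in tough there was 14.7% (11.8 to 18.1%), an interval that overlaps the 12.9% (12.2 to 13.7%) elsewhere, and the share wide in tender was 2.44%, against 3.29% elsewhere. The median tender length was 2000 bp in all these parts.

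The share also differed with the number of other pairs within 500000 bp to either side. It was 9.98% (8.59 to 11.6%) with up to 2 other pairs, 12.5% with 3 to 6, 14.0% with 7 to 13 and 14.6% (13.3 to 16.1%) with 14 or more. The share wide in tender had no such order, with 3.71%, 2.49%, 3.69% and 3.39%. Across the 29 chromosomes, the share wide in tough and the number of pairs per Mb had a Spearman's rho of 0.39, and the share wide in tender one of 0.35. Both are descriptions, since all 29 chromosomes come from the same 2 libraries. The nearest other tough peak lay a median of 23800 bp from the tough peak of a member and 28800 bp over all pairs, and the nearest other tender peak 22400 bp and 26800 bp from the tender peak.

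The pair after a member was a member about as often as the pair after any other. Of 1199 members followed by another pair on the chromosome, 172 were followed by a member (14.3%), against 12.8% after pairs that were no members, and the Wilson intervals of 12.5 to 16.4% and 12.1 to 13.6% overlapped. In all, 887 members had no member as a direct neighbour in the order of pairs, and the longest series of neighbours, on chromosome 19 from 49332601 to 49609800, held 5. Singled out after the values had been seen, the bin of 1 Mb with the most members was on chromosome 5 from 56000001 to 57000000, where 10 of 22 pairs were wide in tough. A bin on chromosome 25 from 34000001 to 35000000 held 9 of 18, and a bin on chromosome 7 from 4000001 to 5000000 held 9 of 23. Among the 1822 bins with a pair, 719 held a member and 120 held 3 or more.

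The rule leaves out tough peaks that cover several tender peaks. On chromosomes 1 to 29 there were 260 tough peaks over 2 or more tender peaks (2.31% of 11277) and 106 tender peaks over 2 or more tough peaks (0.841% of 12607). On chromosome X, which the rule does not use, 20 of 222 pairs were at least 2 times as long in tough (9.01%, Wilson interval 5.91 to 13.5%).

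The further pair of deposited lists, with 12452 tender and 11395 tough peaks on other positions, was compared after the values had been seen. In it 1174 of 8874 pairs were wide in tough (13.2%) and 301 wide in tender (3.39%). Their median lengths were again 1200 bp and 3200 bp and their median reads 18 and 24. In the last 5 Mb 17.8% of the pairs were wide in tough, against 12.8% elsewhere. The highest share by chromosome was 16.9%, on chromosome 23, as in the lists used here, while the lowest was 5.30%, on chromosome 12, with 6.82% on chromosome 20. Across chromosomes the shares in both kinds of list had a Spearman's rho of 0.71 (29 chromosomes), again a description. The lists come from the same libraries, so their likeness says nothing of the spread between steers.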

How the data were processed

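H3K4me3 ChIP-Seq of LD was analysed from the peak lists of 1 pooled tender and 1 pooled tough library, grouped by the sample titles. Per the methods, the authors aligned the reads with Maq and dropped redundant reads. They called peaks with SICER (version 1.1 per the submitters' notes) in 200 bp windows with gaps up to 400 bp and an E-value of 100. The peak totals in the paper are those of the further pair of deposited lists. Whether the same alignment and E-value gave the lists used here is therefore not known. The deposited score of a peak is described in the report; starts count from 0 in the deposited lists, and 1 was added to each start and end. No control library was used here.

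The members and lists described were chosen with earlier results of these data known. Pairs overlapped by at least 1 bp, each with no other partner. The mean reads per window followed from peaks of 1 window and was refined on scores up to 80. Reads were then matched to scores up to 180 within a tolerance of 1.5e-09, which gave 1 number for each such peak, 94.0% of the tender and 96.5% of the tough list. A mean raised by 0.1% matched 0 peaks. From 20 reads in a window on, SICER's approximate factorial was used. Regions named are those with the 8 highest ratios, the 8 largest differences, the 8 highest tough and 5 highest tender scores, and those next to the limit. With 1 library per group no p-value was computed. Intervals are 95% Wilson intervals. The software was numpy 2.4.6, scipy 1.17.1, pandas 2.3.3 and matplotlib 3.10.9 under Python 3.11.15. Scripts were tested on simulated data, where the reads of 100% of 3000 peaks were recovered. Genes and sequences were not analysed here, because no genome of these positions was used.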

Additional observations from a re-analysis of the deposited data

How the results depend on the processing

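The number of wide-in-tough pairs stayed between 1092 and 1225 when both lists were reduced to equal numbers of peaks, and with an overlap of 50% of the tender peak, partners up to 400 bp apart, chromosome X added and the other deposited lists, the last chosen after the values had been seen. Where a peak had to reach 2 times the lowest score of its list, 596 of 5747 pairs were wide in tough (10.4%) and 123 wide in tender (2.14%), with median lengths of 1600 and 3800 bp, median scores of 83.1 and 86.6, extension on both sides in 76.0%, a distance of 37500 bp to the next tough peak and 17.7% members in the lowest score quartile. A ratio of 1.5 gave 2622 pairs (1500 and 3000 bp, scores 59.98 and 61.1, both sides in 63.0%), with shares of 32.1% on chromosome 23, 75.6% for tender peaks of 200 to 800 bp and 42.9% in the lowest score quartile. A ratio of 3 gave 325 pairs (tender length 1000 bp, scores 40.9 and 51.1, both sides in 76.9%, distance 17200 bp), with shares of 4.73%, 33.0% and 8.78%. With equal numbers of peaks the median scores were 56.3 and 60.7 and the lowest quartile held 21.1%. Median reads were 16 and 21 with scores up to 100, and 28 and 32 with at least 20 tender reads. These shifts follow from which pairs each setting keeps. The values that did not shift, 44 in all with the counts of 1092 to 1225 among them, stayed within the 95% interval of the value reported or within 1.5 times a count. Genes within 5 kb were not run. No paired analysis was possible because each group is 1 pooled library. Depth limits single pairs, with medians of 18 and 24 reads.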
